A study of Homo sapiens with 12 samples.

Results

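The transcripts of 37 enzymes and transporters of glycolysis, pyruvate oxidation and the tricarboxylic acid (TCA) cycle were followed in HEK293T cells, an immortalised human embryonic kidney line expressing the SV40 large T antigen. The genes were taken by symbol from a deposited RNA-seq table of 56337 distinct gene IDs, and all 37 were found. A glycolytic arm of 18 genes runs from hexokinase to the lactate transporters, and a mitochondrial arm of 19 genes runs from pyruvate dehydrogenase through the TCA cycle. Wild-type cells first received 0.1 mg/ml of FAC, ferric ammonium citrate, which supplies iron, or none, for 24 h, and then bafilomycin A1 (BafA1, an inhibitor of the proton pump that acidifies lysosomes) at 10 nM or none for a further 24 h. The 4 groups were FAC+BafA1, BafA1 alone, FAC alone and untreated control, with 3 libraries each. All were cultured in RPMI medium with serum at atmospheric oxygen. Replicates carry numbers in the labels and are nowhere called separate cultures, so a p-value here measures the spread between these samples, which may be technical.

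Glycolysis splits glucose into pyruvate in the cytosol, and lactate dehydrogenase reduces pyruvate to lactate, which monocarboxylate transporters carry across the membrane. The pyruvate dehydrogenase complex converts pyruvate into acetyl-CoA in the mitochondrion, where the TCA cycle oxidises it and feeds the respiratory chain. Cells take up iron through endosomes and lysosomes that need an acidic lumen to release it. Hypoxia-inducible transcription factors, which are kept low by iron-dependent prolyl hydroxylases, are known to activate several glycolytic genes and to bind a core sequence ACGTG.

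The table gives FPKM, fragments per kilobase of transcript scaled to the depth of the library, and log2 changes below are on the scale of log2(FPKM + 1), which understates the change of low genes. A gene was called when limma's Benjamini-Hochberg adjusted p, computed over the 13682 genes that averaged 1 FPKM or more, was under 0.05. Of the 37 members 36 were tested. The depth estimated from the steps between low values was 34.75 to 39.0 M fragments per library (M, mega). The table differs between the libraries with and without FAC in ways beyond single genes. There were 304 genes at 0 in all 6 BafA1 and control libraries with at least 1 FPKM in all 6 FAC+BafA1 and FAC libraries, and 323 genes the other way round, none of them a member. The share of low values within 0.2 of a whole fragment was 71.4% to 75.7% with FAC and 55.0% to 58.3% without. In each comparison across FAC, and in the interaction, such a difference in how the values were made and an effect of FAC cannot be told apart, whereas BafA1 against control and FAC+BafA1 against FAC each lie on 1 side. As a check of the treatments, TFRC, the transferrin receptor whose transcript is stabilised when cells lack iron, had 130.9, 132.92 and 126.93 FPKM in BafA1 cells against 58.65, 57.19 and 59.08 FPKM in control cells. It had 123.91, 118.96 and 124.47 FPKM in FAC+BafA1 cells against 9.39, 9.63 and 11.73 FPKM in FAC cells. Of 7 marker genes listed for HEK293 cells 6 averaged at least 1 FPKM, with PAX2 below it. The same held for 0 of 8 keratinocyte markers, 2 of 8 blood markers, 1 of 8 fibroblast markers and 0 of 4 muscle markers. The HEK293 markers summed to 882 to 889 FPKM in BafA1 cells against 478 to 487 FPKM in control cells, with 3 of the 6 tested called higher. Most of that sum was VIM, at 697 ± 14.3 FPKM in BafA1 cells and 355 ± 4.75 FPKM in control cells, while INA, KRT8 and KRT18 were not called. The fibroblast markers summed to 3.37 to 3.98 FPKM in BafA1 cells against 5.25 to 7.52 FPKM in control cells. Transcripts encoded by mitochondrial DNA took 2.46% to 3.09% of all FPKM in BafA1 libraries and 1.65% to 2.27% in control libraries. The part of these differences in the results below was not tested.

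Upstream sequences of 35 members were available from RefSeq (GRCh38.p14), and the 250 bases before the annotated start of 6 glycolytic genes are printed to set those whose transcripts rose with BafA1 beside those whose transcripts fell. Capitals mark ACGTG, the core letters bound by hypoxia-inducible factors, on either strand (CACGT on the other). Where it lies within CACGTG it also forms an E-box, the site of another factor family. ENO2, ALDOC, LDHA and PGK1 rose with BafA1. PGAM1 and LDHB fell. The windows are chr12:6914330-6914579 on the plus strand for ENO2, chr17:28576896-28577145 on the minus strand for ALDOC, chr11:18394313-18394562 on the plus strand for LDHA and chrX:78103998-78104247 on the plus strand for PGK1. Those of PGAM1 and LDHB are chr10:97427568-97427817 on the plus strand and chr12:21657843-21658092 on the minus strand. The windows of ENO2, PGK1, PGAM1 and LDHB lie wholly inside the gene as GENCODE places it. GENCODE starts PGAM1 at 97426191, for example. Sequence before these outermost starts was not searched.
ENO2: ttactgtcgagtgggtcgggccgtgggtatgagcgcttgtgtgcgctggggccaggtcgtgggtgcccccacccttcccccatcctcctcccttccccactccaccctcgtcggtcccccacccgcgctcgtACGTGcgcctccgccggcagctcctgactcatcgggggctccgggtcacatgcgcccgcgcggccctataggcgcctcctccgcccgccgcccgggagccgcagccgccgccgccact
ALDOC: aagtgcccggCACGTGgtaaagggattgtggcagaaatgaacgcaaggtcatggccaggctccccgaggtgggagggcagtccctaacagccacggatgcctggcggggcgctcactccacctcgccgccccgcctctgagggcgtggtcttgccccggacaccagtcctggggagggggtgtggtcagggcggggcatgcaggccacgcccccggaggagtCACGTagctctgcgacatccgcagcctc
LDHA: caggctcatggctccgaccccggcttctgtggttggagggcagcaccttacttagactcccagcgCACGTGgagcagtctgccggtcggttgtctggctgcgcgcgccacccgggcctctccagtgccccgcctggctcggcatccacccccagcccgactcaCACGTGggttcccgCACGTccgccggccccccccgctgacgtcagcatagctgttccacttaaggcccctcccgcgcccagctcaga
PGK1: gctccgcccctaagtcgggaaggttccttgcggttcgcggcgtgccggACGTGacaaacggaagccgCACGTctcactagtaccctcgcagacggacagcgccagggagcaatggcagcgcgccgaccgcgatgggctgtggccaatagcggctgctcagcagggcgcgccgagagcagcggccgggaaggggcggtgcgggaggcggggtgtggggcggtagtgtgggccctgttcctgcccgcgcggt
PGAM1: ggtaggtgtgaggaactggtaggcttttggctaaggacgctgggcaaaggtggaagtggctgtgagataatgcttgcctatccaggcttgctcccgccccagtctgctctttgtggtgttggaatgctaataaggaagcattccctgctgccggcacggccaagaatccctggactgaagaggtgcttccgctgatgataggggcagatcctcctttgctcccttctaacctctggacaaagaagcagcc
LDHB: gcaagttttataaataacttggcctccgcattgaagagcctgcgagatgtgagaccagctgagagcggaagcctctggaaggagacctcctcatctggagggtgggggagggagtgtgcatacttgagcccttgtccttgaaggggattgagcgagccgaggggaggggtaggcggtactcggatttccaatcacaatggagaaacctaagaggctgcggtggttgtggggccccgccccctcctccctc

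ACGTG in either orientation was present in 4 of the 5 upstream windows of glycolytic genes that rose with BafA1, HK1 being without it, and in 2 of the 7 windows of those that fell, GPI and GAPDH. In the mitochondrial arm it was present in 4 of the 15 windows of genes that fell. Among members not called between BafA1 and control cells it was present in 1 of 4 glycolytic and 1 of 3 mitochondrial windows. Among all 27305 RefSeq promoters of the same length 18.7% held it. That set is not limited to expressed genes, and the share among expressed genes is not given here. The windows printed above are of genes that rose and held it or fell and lacked it. HK1, GPI and GAPDH are not among them, so the print shows a cleaner split than these counts. All 7 windows of glycolytic genes that fell lie wholly inside the gene as GENCODE places it. Of the 5 windows of those that rose, only ENO2 and PGK1 lie so. The windows of PFKP, ENO1, IDH1, IDH2, IDH3A, SUCLA2, SUCLG1 and MDH1, also counted here, lie inside the gene too. The counts thus do not compare windows placed alike, and the part of this in them was not tested. A match is a description of the sequence in this window and no evidence of binding.

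When iron was not added, glycolytic members were called in both directions with BafA1, much as all genes tested were, and most mitochondrial members were called lower. Of 17 glycolytic members tested 12 were called between BafA1 and control cells, 5 higher and 7 lower, and their median log2 change was -0.02. Of 19 mitochondrial members 16 were called, all lower, with a median of -0.28. The background was high: 67.1% of all tested genes were called in this comparison, 29.5% higher and 37.6% lower, around a median log2 change of -0.04. In bulk libraries fewer cells of a kind and less RNA per cell cannot be told apart. Being called was common, and the share of glycolytic members called, 70.6%, was close to the 67.1%. Among the 9655 genes that averaged 5 FPKM or more, which include all 36 members tested, 74.9% were called. In the mitochondrial arm 84.2% were called. Groups without overlap were common too. Every BafA1 library lay above every control library for 30.4% of all genes tested, and below for 38.3%. Among glycolytic members this held for 23.5% and 41.2%, and among mitochondrial members for 0% and 84.2%. With median-of-ratios scaling 5 glycolytic members were higher and 6 lower, and with quantile normalization 8 and 4. All 14 mitochondrial members called under either were lower. The sign of the small glycolytic median depended on the scaling, at 0.04 with median-of-ratios scaling and 0.07 with quantile normalization, while the mitochondrial median was -0.22 and -0.21 under them.

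**Figure D1:**
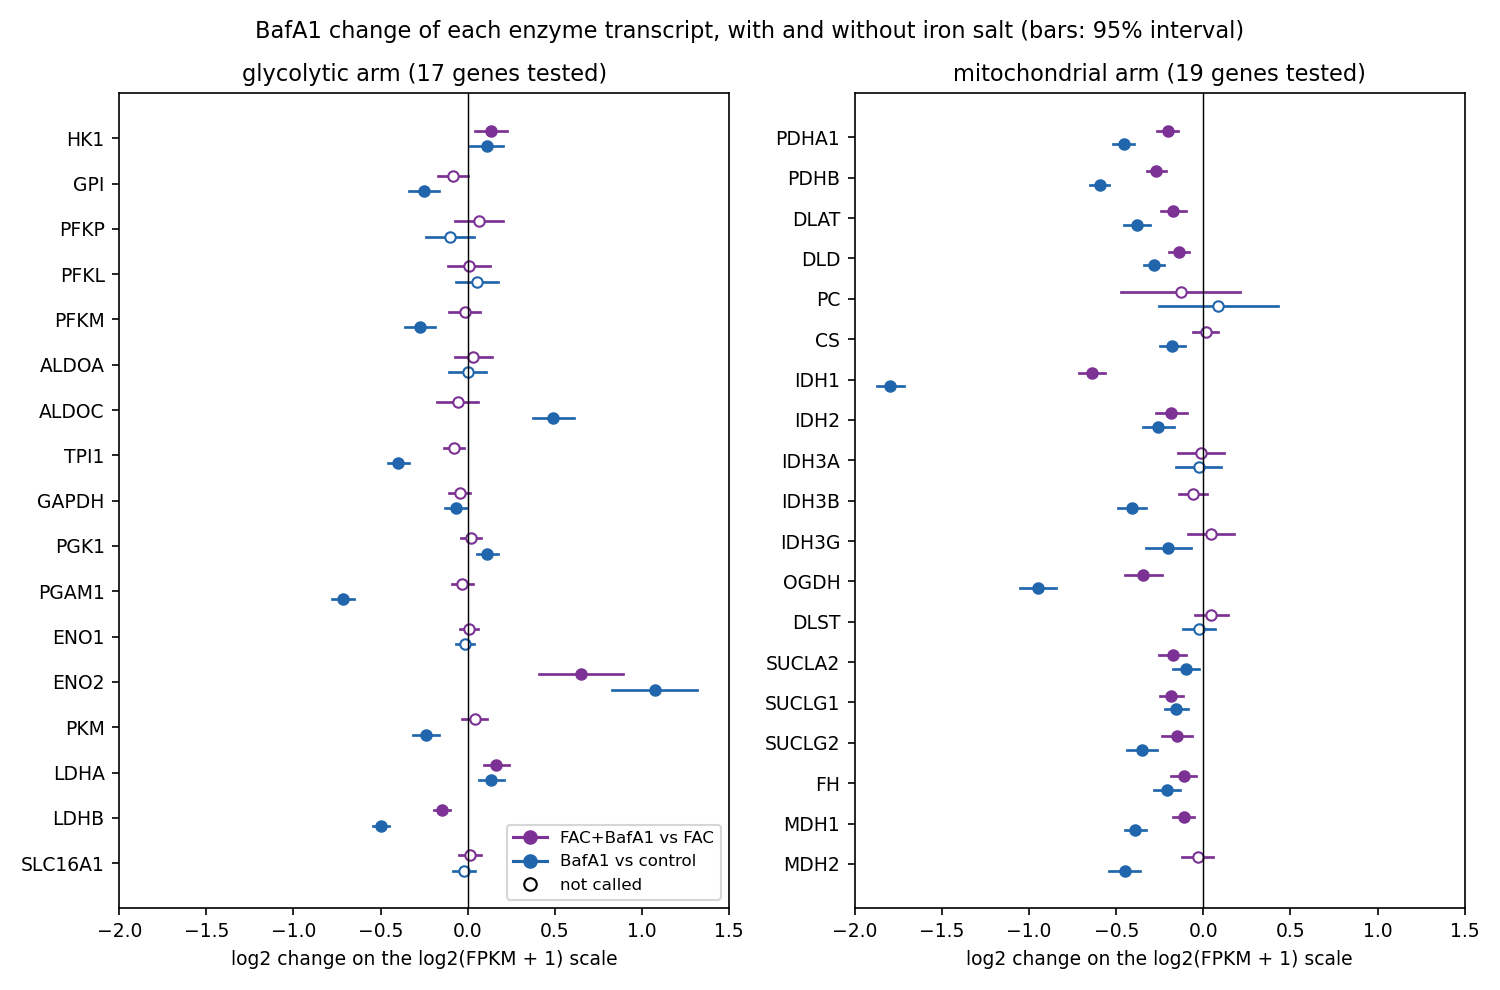
Log2 change of each tested enzyme transcript with BafA1, with FAC present (FAC+BafA1 against FAC) and without FAC (BafA1 against control), with 95% intervals, for the glycolytic and the mitochondrial arm; filled points are called. ENO2 and ALDOC lie farthest to the right without FAC, IDH1 and OGDH farthest to the left, and every called mitochondrial change is negative.

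Enolase, which makes phosphoenolpyruvate, has a ubiquitous form, ENO1, and a neuronal form, ENO2, that other cells carry at low levels. ENO2 had 13.74, 13.17 and 13.76 FPKM in BafA1 cells against 5.71, 5.76 and 6.32 FPKM in control cells. All BafA1 libraries lay above all control libraries, by 2.29-fold in the means (log2 change 1.07, 95% interval 0.83 to 1.31, adjusted p = 3.3e-06). With iron present it had 11.67, 9.79 and 10.97 FPKM in FAC+BafA1 cells against 6.24, 8.21 and 5.33 FPKM in FAC cells, again without overlap (log2 change 0.65, adjusted p = 0.00188). ENO1 stood far above it, between 1267 and 1355 FPKM in every library, and was not called with BafA1 (log2 change -0.02, interval -0.07 to 0.04). Quantile normalization gave ENO1 a higher value in BafA1 cells (0.16). ENO1 thus made up nearly all enolase transcript in every group, and the ratio of ENO1 to ENO2 averaged 94.0 ± 2.45 in BafA1 cells and 218 ± 15.1 in control cells (SD, n = 3 each).

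Aldolase, which cleaves fructose bisphosphate, shows the same arrangement of a major and a minor form. ALDOC, the form best known from brain, had 8.49, 8.3 and 9.07 FPKM in BafA1 cells against 5.7, 5.94 and 5.87 FPKM in control cells. The groups were separate (1.48-fold, log2 change 0.49, adjusted p = 5.03e-06). It was not called in iron-treated cells. ALDOC had 6.22, 5.67 and 5.93 FPKM in FAC+BafA1 cells against 6.13, 6.4 and 6.13 FPKM in FAC cells, and these groups overlapped (log2 change -0.06, interval -0.17 to 0.06). ALDOA, the muscle and ubiquitous form, lay between 1087 and 1294 FPKM and was not called with BafA1 in either setting of iron (log2 change 0.00, interval -0.11 to 0.11, without FAC), although quantile normalization put it higher without FAC (0.19).

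The other glycolytic members that rose did so by little. LDHA, the lactate dehydrogenase subunit favoured in glycolytic tissues, had 1122, 1128 and 1213 FPKM in BafA1 cells against 1063, 1074 and 1016 FPKM in control cells. The libraries did not overlap, at 1.10-fold (log2 change 0.14, adjusted p = 0.00292), and BafA1 replicate 3 was the highest. PGK1, the first ATP-yielding enzyme of the pathway, averaged 778 ± 20.6 FPKM in BafA1 cells and 719 ± 17 FPKM in control cells (log2 change 0.11, adjusted p = 0.0025). HK1, the hexokinase that traps glucose as its phosphate, averaged 52.8 ± 2.4 and 48.9 ± 1.79 FPKM, with overlapping libraries (log2 change 0.11, adjusted p = 0.0399).

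The glycolytic genes that fell were led by PGAM1, the mutase that moves the phosphate of phosphoglycerate. PGAM1 had 299.16, 302.14 and 297.95 FPKM in BafA1 cells against 503.86, 499.14 and 475.35 FPKM in control cells. It fell to 0.608 of the control mean with no overlap (log2 change -0.71, 95% interval -0.78 to -0.65, adjusted p = 7.11e-10). In iron-treated cells it had 459.93, 481.57 and 484.4 FPKM in FAC+BafA1 cells against 490.23, 481.23 and 486.39 FPKM in FAC cells, with overlap and no call (log2 change -0.03, interval -0.09 to 0.03).

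LDHB, the lactate dehydrogenase subunit favoured in oxidative tissues, had 955.67, 996.19 and 992.24 FPKM in BafA1 cells against 1397, 1371 and 1383 FPKM in control cells. Every BafA1 library lay below every control library (0.709 of the control mean, log2 change -0.50, adjusted p = 1.63e-09). It also had 1268, 1271 and 1275 FPKM in FAC+BafA1 cells against 1397, 1420 and 1414 FPKM in FAC cells, a smaller fall without overlap (log2 change -0.15, adjusted p = 0.000595). LDHA with FAC had 1132, 1144 and 1121 FPKM in FAC+BafA1 cells against 1028, 990.88 and 1012 FPKM in FAC cells, also separate (log2 change 0.17, adjusted p = 0.0046). The 2 subunits therefore moved in opposite directions in both settings of iron. The LDHA to LDHB ratio was 1.18 ± 0.0456 in BafA1 cells and 0.759 ± 0.0244 in control cells, and 0.891 ± 0.0107 in FAC+BafA1 cells and 0.716 ± 0.0188 in FAC cells (SD, n = 3 each). Their sum was lower in BafA1 cells, at 2136 ± 65.0 FPKM against 2435 ± 31.9 FPKM in control cells.

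TPI1, which interconverts the triose phosphates, had 678.06, 664.49 and 655.66 FPKM in BafA1 cells against 865.64, 882.82 and 886.33 FPKM in control cells. The groups were apart (0.758 of the control mean, log2 change -0.40, adjusted p = 8.63e-08). With FAC it had 830.54, 854.48 and 858.19 FPKM in FAC+BafA1 cells against 908.95, 916.02 and 861.61 FPKM in FAC cells, lower in every library and short of the call (log2 change -0.08, adjusted p = 0.0648). PFKM, 1 of 3 phosphofructokinase genes for the committed step, had 38.77, 37.95 and 36.01 FPKM in BafA1 cells against 46.24, 43.45 and 47.1 FPKM in control cells. It fell without overlap (log2 change -0.27, adjusted p = 6.25e-05), and had 43.07, 45.3 and 43.84 FPKM in FAC+BafA1 cells against 45.56, 44.34 and 44.01 FPKM in FAC cells, which overlapped (log2 change -0.02, interval -0.11 to 0.07). The other phosphofructokinase genes, PFKL and PFKP, were not called in any of the comparisons and stayed between 38.82 and 48.92 FPKM.

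PKM, the pyruvate kinase of most tissues, had 652.24, 642.48 and 666.67 FPKM in BafA1 cells against 789.03, 771.25 and 756.43 FPKM in control cells. It fell with no overlap (log2 change -0.24, adjusted p = 4.03e-05). FAC+BafA1 cells had 754.95, 772.55 and 767.76 FPKM against 755.4, 774.23 and 704.05 FPKM in FAC cells, which were mixed (log2 change 0.04, interval -0.03 to 0.11). GPI, which makes fructose phosphate, averaged 169 ± 6.75 FPKM in BafA1 cells and 201 ± 5.43 FPKM in control cells (log2 change -0.25, adjusted p = 0.000124). GAPDH, often used as a reference transcript, had 2247, 2262 and 2200 FPKM in BafA1 cells against 2326, 2362 and 2345 FPKM in control cells. The libraries were separate but the change was small (0.954 of the control mean, log2 change -0.07, adjusted p = 0.0478). With FAC its values were 2220, 2330 and 2350 FPKM in FAC+BafA1 cells and 2407, 2425 and 2296 FPKM in FAC cells, with overlap (log2 change -0.05, interval -0.11 to 0.01). SLC16A1, a monocarboxylate transporter, lay between 119.65 and 128.37 FPKM throughout (log2 change -0.02 with BafA1, interval -0.09 to 0.04). SLC16A3, the transporter typical of lactate-exporting cells, was below the level tested, with 0.96, 0.77 and 0.63 FPKM in BafA1 cells and 0.44, 0.46 and 0.39 FPKM in control cells, and 0.30 to 0.44 FPKM in the FAC+BafA1 and FAC libraries.

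**Figure D2:**
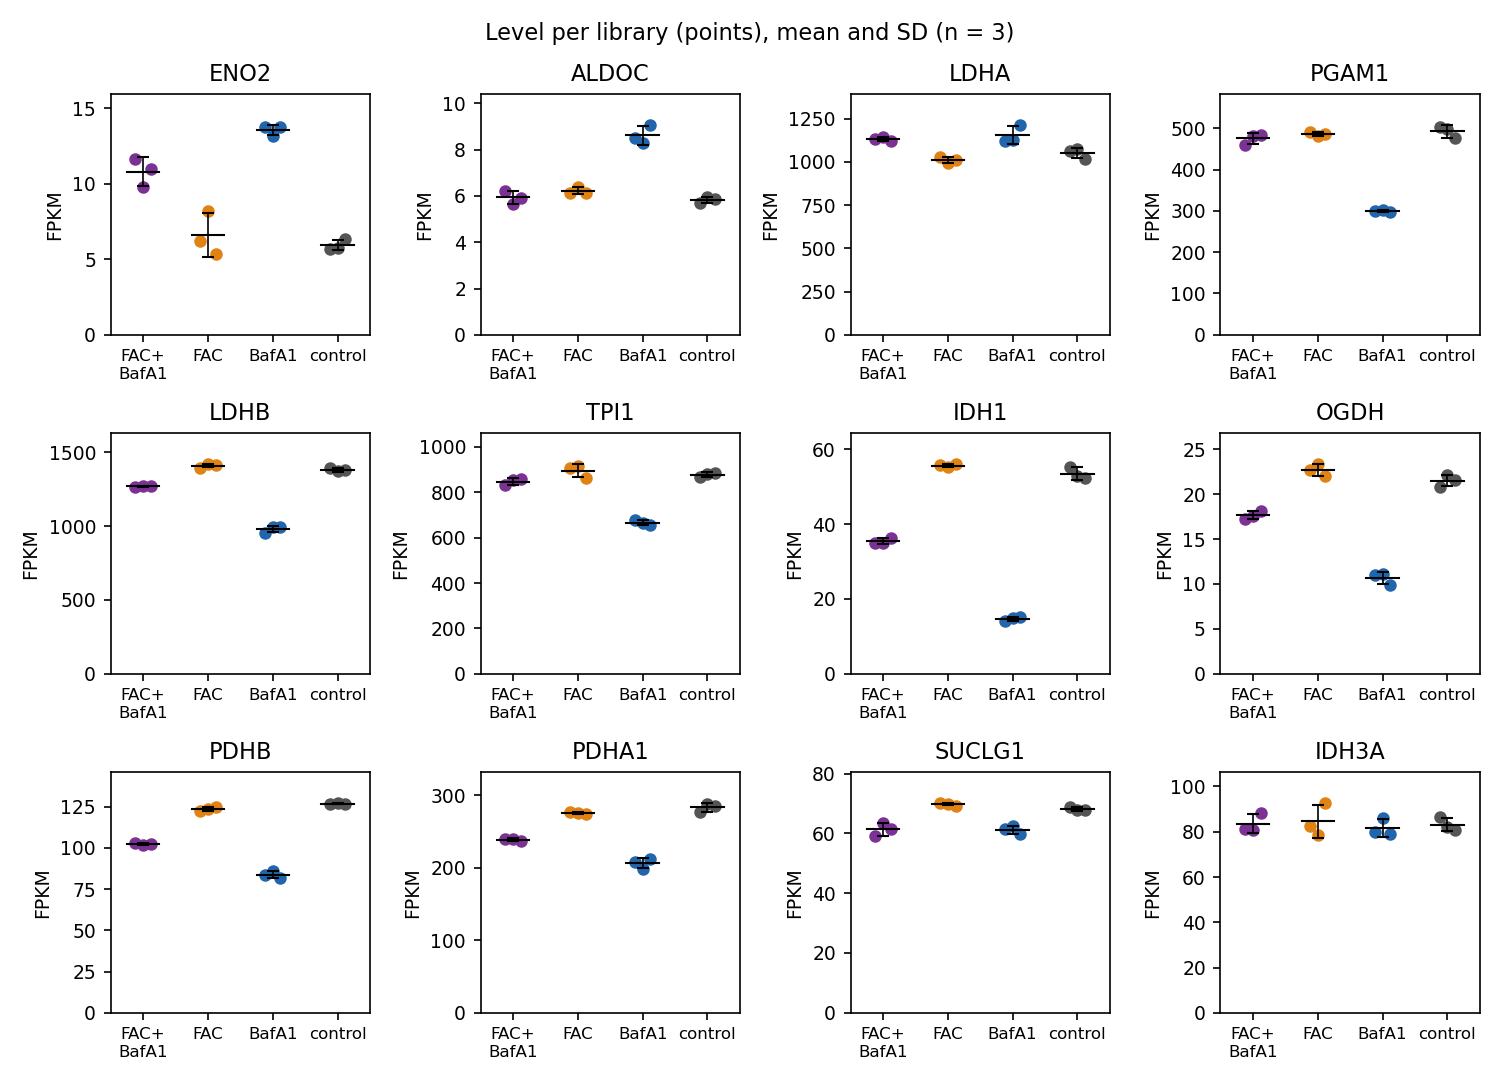
FPKM of selected enzyme transcripts in each library, with the mean and SD of 3 as lines and each axis starting at 0; groups run from FAC+BafA1 and FAC to BafA1 and control. IDH1 lies at 14.1 to 15.1 FPKM in BafA1 cells, 34.8 to 36.3 FPKM in FAC+BafA1 cells and above 52 FPKM in the other groups.

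In the mitochondrial arm the transcripts of all 4 listed genes of the pyruvate dehydrogenase complex, the entry point of pyruvate, fell. PDHB, a subunit of its decarboxylase, had 83.64, 85.77 and 81.44 FPKM in BafA1 cells against 126.7, 127.22 and 126.42 FPKM in control cells. The groups were far apart (0.66 of the control mean, log2 change -0.59, adjusted p = 1.22e-09). PDHA1, its partner subunit, had 208.1, 198.46 and 212.51 FPKM in BafA1 cells against 276.67, 287.92 and 285.77 FPKM in control cells (log2 change -0.46, adjusted p = 2.99e-08). DLAT, the acetyltransferase, and DLD, the lipoamide dehydrogenase shared with other complexes, fell by 0.38 and 0.28 on the log2 scale. DLAT averaged 55.2 ± 1.65 FPKM in BafA1 cells and 72.1 ± 1.39 FPKM in control cells, and DLD 85.9 ± 1.4 FPKM in BafA1 cells and 105 ± 0.815 FPKM in control cells. The summed transcript of the 4 genes was 431 ± 3.47 FPKM in BafA1 cells and 587 ± 6.49 FPKM in control cells (SD, n = 3 each).

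PC, pyruvate carboxylase, which makes oxaloacetate directly from pyruvate, was not called. It had 9.66, 7.18 and 6.51 FPKM in BafA1 cells against 5.83, 8.71 and 7.26 FPKM in control cells, and the groups were mixed (log2 change 0.09, interval -0.26 to 0.43). In iron-treated cells it had 6.94, 7.33 and 7.59 FPKM in FAC+BafA1 cells and 9.47, 8.5 and 6.47 FPKM in FAC cells, with a wide interval (log2 change -0.13, -0.47 to 0.21).

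IDH1 had the largest change of the members tested between BafA1 and control cells. With FAC present ENO2 (0.65 on the log2 scale) and IDH1 (-0.64) changed by about the same size. IDH1 encodes the NADP-linked isocitrate dehydrogenase of the cytosol and peroxisome and is listed here with its mitochondrial relatives. IDH1 had 14.14, 14.87 and 15.08 FPKM in BafA1 cells against 55.38, 52.94 and 52.28 FPKM in control cells. It fell to 0.275 of the control mean, with no overlap (log2 change -1.80, 95% interval -1.87 to -1.72, adjusted p = 3.68e-12). It also had 34.84, 35.05 and 36.29 FPKM in FAC+BafA1 cells against 55.8, 55.18 and 56.01 FPKM in FAC cells, 0.636 of the FAC mean (log2 change -0.64, adjusted p = 2.79e-07). IDH2, the mitochondrial NADP-linked enzyme, had 29.74, 29.39 and 31.49 FPKM in BafA1 cells against 37.07, 36.98 and 34.92 FPKM in control cells. That was a smaller fall without overlap (log2 change -0.26, adjusted p = 0.000116). Its values were 33.51, 32.95 and 33.02 FPKM in FAC+BafA1 cells against 38.89, 38.53 and 36.09 FPKM in FAC cells (log2 change -0.18, adjusted p = 0.00809). The ratio of IDH1 to IDH2 averaged 0.487 ± 0.0167 in BafA1 cells and 1.47 ± 0.037 in control cells, and 1.07 ± 0.0298 in FAC+BafA1 cells and 1.47 ± 0.0684 in FAC cells (SD, n = 3 each). Without IDH1 and MDH1, whose products act largely outside the mitochondrion, 14 of 17 mitochondrial members were called lower with BafA1 and the median was -0.26.

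**Figure D3:**
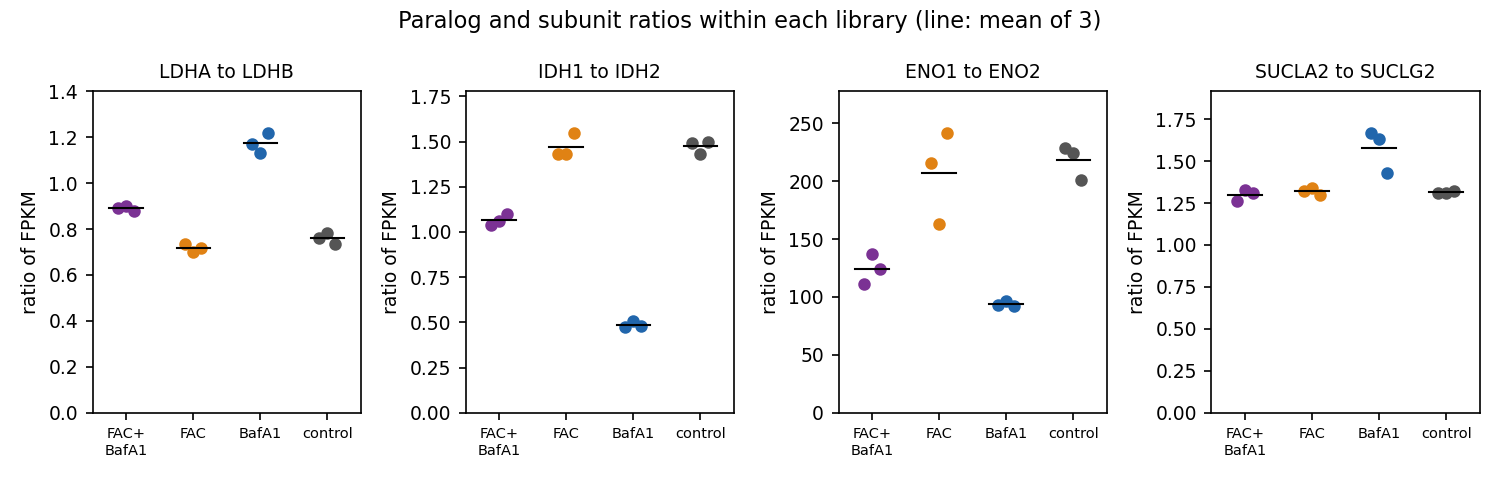
Ratios of FPKM between paralogs or subunits in each library, with the mean of 3 as a line; groups run from FAC+BafA1 and FAC to BafA1 and control. The ratio of LDHA to LDHB is highest and that of IDH1 to IDH2 lowest in BafA1 cells, with FAC+BafA1 cells between them and the other groups.

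The subunits of NAD-linked isocitrate dehydrogenase did not move alike in their calls. IDH3B had 63.32, 57.73 and 61.96 FPKM in BafA1 cells against 80.03, 83.76 and 79.94 FPKM in control cells. All BafA1 libraries were lower (log2 change -0.41, adjusted p = 9.71e-07). With FAC it had 79.08, 76.84 and 78.24 FPKM in FAC+BafA1 cells and 82.62, 82.25 and 79.23 FPKM in FAC cells, lower in every library but not called (log2 change -0.06, interval -0.14 to 0.02). IDH3G fell by 0.20 on the log2 scale (adjusted p = 0.0107), and IDH3A was not called (log2 change -0.03, interval -0.16 to 0.10). The difference between subunits was not itself tested. The ratio of IDH3A to IDH3B was 1.34 ± 0.13 in BafA1 cells and 1.02 ± 0.0501 in control cells, with no overlap.

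OGDH, the decarboxylase of the 2-oxoglutarate dehydrogenase complex, had 10.96, 11.1 and 9.91 FPKM in BafA1 cells against 20.84, 22.12 and 21.56 FPKM in control cells. It fell to 0.496 of the control mean (log2 change -0.95, 95% interval -1.05 to -0.85, adjusted p = 5.75e-09). In iron-treated cells it had 17.28, 17.51 and 18.15 FPKM in FAC+BafA1 cells against 22.71, 23.34 and 21.99 FPKM in FAC cells, again separate (log2 change -0.34, adjusted p = 0.000473). DLST, the succinyltransferase of the same complex, was not called in any comparison and lay between 46.87 and 51.76 FPKM (log2 change -0.03 with BafA1, interval -0.12 to 0.07).

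MDH2, the malate dehydrogenase of the mitochondrion, had 222.33, 215.77 and 209.22 FPKM in BafA1 cells against 287.28, 297.74 and 301.75 FPKM in control cells. The groups did not overlap (log2 change -0.45, adjusted p = 9.22e-07). FAC+BafA1 cells had 273.95, 280.7 and 293.41 FPKM against 298.87, 296.61 and 271.84 FPKM in FAC cells, which overlapped (log2 change -0.03, interval -0.12 to 0.06). MDH1, its cytosolic counterpart in the malate-aspartate shuttle, fell by 0.39 on the log2 scale without FAC and by 0.11 with FAC. CS, citrate synthase, had 155.76, 152.39 and 144.28 FPKM in BafA1 cells against 168.53, 168.89 and 174.92 FPKM in control cells, a small fall without overlap (log2 change -0.18, adjusted p = 0.000377). With FAC it had 170.56, 175.08 and 165.37 FPKM in FAC+BafA1 cells and 167.11, 169.87 and 169.4 FPKM in FAC cells, with overlap (log2 change 0.01, interval -0.06 to 0.08). FH, fumarase, fell by 0.21 on the log2 scale without FAC.

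Succinyl-CoA ligase pairs the shared subunit SUCLG1 with SUCLA2 in the ATP-forming enzyme or SUCLG2 in the GTP-forming one. SUCLG2 fell by 0.35 on the log2 scale with BafA1 without FAC (adjusted p = 7.15e-06), SUCLG1 by 0.15 (adjusted p = 0.000672) and SUCLA2 by 0.10 (adjusted p = 0.0248). The ratio of SUCLA2 to SUCLG2 was 1.58 ± 0.13 in BafA1 cells and 1.31 ± 0.00879 in control cells, but 1.3 ± 0.0366 in FAC+BafA1 cells and 1.32 ± 0.0213 in FAC cells (SD, n = 3 each).

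Of the 28 calls between BafA1 and control cells 21 held under all 20 alternative settings. GAPDH lost its call in 17 of 20 (adjusted p from 0.0302 to 0.945), among them the removal of any single control or BafA1 library, of FAC replicate 1 or 2, or of FAC+BafA1 replicate 2 or 3 (0.053 to 0.141). HK1 lost its call in 10 of 20 (0.00522 to 0.158), among them the removal of control replicate 1 or 3, BafA1 replicate 2 or 3, or FAC replicate 1 or 2 (0.0506 to 0.158). SUCLA2 was not called without control replicate 1, control replicate 2 or BafA1 replicate 3 (0.0735 to 0.106) or under either scaling, and its range was 0.0131 to 0.409. IDH3G was not called without BafA1 replicate 3 (adjusted p = 0.0508) or with median-of-ratios scaling, over a range of 0.00172 to 0.0672. GPI, PKM and CS lost the call under quantile normalization, where their adjusted p reached 0.0771, 0.064 and 0.409, the highest of their alternatives.

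FAC alone moved no member past the threshold. Between FAC and control cells 0 of 17 glycolytic and 0 of 19 mitochondrial members were called by limma, with a background of 9.56% of all genes tested, 4.72% higher and 4.84% lower. Among the 9655 genes that averaged 5 FPKM or more, which include all 36 members tested, it was 4.16%, and again 0 members were called. At an unadjusted p under 0.05 there were 1 glycolytic and 0 mitochondrial members, and the lowest adjusted p was 0.297 in the glycolytic and 0.44 in the mitochondrial arm. The member with that lowest value was ALDOA, at 1222 ± 86.4 FPKM in FAC cells and 1133 ± 52.4 FPKM in control cells, and it was called only without FAC replicate 3 (adjusted p = 0.0236, range over alternatives 0.0236 to 0.683). Across members the log2 changes ran from -0.06 to 0.15, with medians of 0.01 and 0.02. IDH1, which changed most with BafA1, averaged 55.7 ± 0.432 FPKM in FAC cells and 53.5 ± 1.63 FPKM in control cells (log2 change 0.06, interval -0.02 to 0.13).

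In cells given FAC first, BafA1 moved few glycolytic members and still lowered most mitochondrial ones. Between FAC+BafA1 and FAC cells 4 of 17 glycolytic members were called, ENO2, LDHA and HK1 higher and LDHB lower, with a median log2 change of 0.01. With median-of-ratios scaling 2 were higher and 2 lower. In the mitochondrial arm 12 of 19 were called, all lower, with a median of -0.14. The background was 19.3% of all genes tested, 9.76% higher and 9.49% lower, around a median of 0.00. The glycolytic share called, 23.5%, is close to that background and the mitochondrial share was 63.2%. Among genes that averaged 5 FPKM or more 25% were called. Every FAC+BafA1 library lay above every FAC library for 18.8% of all genes tested, and below for 18.1%. Among glycolytic members this held for 17.6% and 11.8%, and among mitochondrial members for 0% and 68.4%. IDH1, OGDH and PDHB led, as described above, and PDHA1 had 240.04, 239.63 and 236.63 FPKM in FAC+BafA1 cells against 276.75, 274.98 and 273.85 FPKM in FAC cells, a fall without overlap (log2 change -0.20, adjusted p = 0.000396). PDHB had 102.89, 101.58 and 102.3 FPKM in FAC+BafA1 cells against 122.48, 123.81 and 124.49 FPKM in FAC cells (log2 change -0.27, adjusted p = 1.91e-05). The remaining 8 mitochondrial genes called, IDH2, SUCLG1, SUCLA2, DLAT, SUCLG2, DLD, FH and MDH1, fell by 0.11 to 0.18 on the log2 scale.

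BafA1 against control and FAC+BafA1 against FAC share no libraries. The 12 mitochondrial genes that fell in the second comparison all fell in the first as well, which is 100% of the 12 and 75% of the 16. Among all genes tested 1067 fell in both, which is 82.2% of the 1298 that fell with FAC and 20.8% of the 5141 that fell without it. Whether the members differ from these shares was not tested. The 4 mitochondrial genes that fell only without FAC by this threshold were CS, IDH3B, IDH3G and MDH2. In the glycolytic arm LDHB alone of 7 falling genes, and ENO2, HK1 and LDHA of 5 rising genes, were called in the same direction in both. Among all genes 958 rose in both, which is 71.7% of the 1336 that rose with FAC and 23.7% of the 4039 that rose without it. Calls made with FAC that did not hold throughout were those of HK1, lost in 14 of 20 alternatives (adjusted p from 0.0384 to 0.165) and on removal of any FAC or FAC+BafA1 library, control replicate 1 or 2, or BafA1 replicate 3 (0.0504 to 0.165), and FH, lost in 7 (0.0281 to 0.124) including FAC replicate 2 or any FAC+BafA1 library (0.0661 to 0.124). SUCLG2 was not called without FAC replicate 3, FAC+BafA1 replicate 1 or FAC+BafA1 replicate 2 (0.0549 to 0.0595, range 0.00889 to 0.0595), nor MDH1 without FAC+BafA1 replicate 3 (0.0647, range 0.013 to 0.19).

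The difference between the BafA1 change in FAC-treated cells and that in cells without FAC was tested as an interaction. It was called for 20 of 36 members, 18 positive and 2 negative, against a background of 50.1% of all genes tested, 29.5% positive and 20.6% negative. By arm these were 8 of 17 glycolytic members, 47.1%, and 12 of 19 mitochondrial members, 63.2%. Among genes that averaged 5 FPKM or more the interaction was called for 58.8%. The glycolytic split of 6 positive and 2 negative was 5 and 3 with median-of-ratios scaling and 5 and 5 with quantile normalization. The mitochondrial split of 12 and 0 was 9 and 1 under the first and 11 and 0 under the second. A positive value means that the transcript was less reduced by BafA1 when FAC had been given. IDH1 had the largest, 1.16 on the log2 scale (95% interval 1.05 to 1.27, adjusted p = 1.19e-08), followed by PGAM1 with 0.68 (0.60 to 0.77, adjusted p = 9.99e-08) and OGDH with 0.61 (0.46 to 0.75, adjusted p = 1.87e-05). ALDOC (-0.55, interval -0.71 to -0.38, adjusted p = 9.12e-05) and ENO2 (-0.42, interval -0.76 to -0.08, adjusted p = 0.0426) were the negative ones, their rise being smaller with FAC.

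The interaction was not called for 7 mitochondrial members, PC, IDH3A, DLST, FH, IDH2, SUCLA2 and SUCLG1. The last 4 of these fell without FAC, and their differences had intervals of -0.01 to 0.20 for FH, -0.05 to 0.20 for IDH2, -0.19 to 0.03 for SUCLA2 and -0.12 to 0.07 for SUCLG1. For SUCLA2 the means were 45.8 ± 1.35 FPKM in FAC+BafA1 cells and 51.9 ± 0.719 FPKM in FAC cells, and 46.2 ± 1.65 FPKM in BafA1 cells and 49.6 ± 1.14 FPKM in control cells (SD, n = 3 each). For GAPDH it was 0.02 (interval -0.07 to 0.11) and not called. For LDHA it was 0.03 (interval -0.07 to 0.13) and not called, while quantile normalization gave -0.14 and a call (adjusted p = 0.0168, range over alternatives 0.0168 to 0.889). The interaction calls of ENO2, GPI and IDH3G depended on single libraries. ENO2 was lost in 13 of 19 alternatives (adjusted p from 0.00647 to 0.12) and without control replicate 1 or 2, any BafA1 library, FAC replicate 1 or 2, or FAC+BafA1 replicate 2 or 3 (0.0538 to 0.1). GPI was lost in 10 (0.0113 to 0.426) and without control replicate 3, BafA1 replicate 2 or 3, FAC replicate 3, or FAC+BafA1 replicate 2 or 3 (0.0554 to 0.0684). IDH3G was lost in 7 (0.00631 to 0.112) and without control replicate 2, BafA1 replicate 1 or 3, FAC replicate 3 or FAC+BafA1 replicate 3 (0.0627 to 0.0753).

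FAC+BafA1 cells were also set against BafA1 cells, which share libraries with the comparisons above. Here 11 of 17 glycolytic members were called, 8 higher and ALDOC, ENO2 and PGK1 lower, with a median log2 change of 0.06, a split of 8 and 3 that was 6 and 4 with median-of-ratios scaling and 4 and 5 with quantile normalization. Of the mitochondrial members 13 of 19 were called, all higher, with a median of 0.21, and 67.9% of all genes tested were called, 38.8% higher and 29.1% lower. Among genes that averaged 5 FPKM or more 71.7% were called. IDH1 rose by 1.21 on the log2 scale, OGDH by 0.68 and PGAM1 by 0.66, while ALDOC fell by 0.47, ENO2 by 0.30 and PGK1 by 0.13. The glycolytic median was -0.001 with median-of-ratios scaling and 0.01 with quantile normalization, and under them ENO1 was lower (-0.001 and -0.09) where the unscaled change was 0.06. ENO1 was not called without any 1 BafA1 library or FAC+BafA1 replicate 2 or 3 (adjusted p from 0.0615 to 0.129). Over all alternatives its adjusted p ran from 0.00864 to 0.978, and the lowest belongs to quantile normalization, which called ENO1 lower. ALDOA rose by 0.14, a call lost without BafA1 replicate 2 or 3 or FAC+BafA1 replicate 3 (0.0594 to 0.0772, range 0.00448 to 0.591) and turned to -0.03 by quantile normalization. The call of ENO2 was lost without BafA1 replicate 1 or 3 or FAC+BafA1 replicate 2 or 3 (0.0535 to 0.109, range 0.00336 to 0.109). GPI, PKM and CS lost the call with quantile normalization (adjusted p = 0.0573, 0.054 and 0.0797). DLD and IDH2 lost it with median-of-ratios scaling (0.183 and 0.147).

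FAC+BafA1 cells set against control cells had 5 of 17 glycolytic members called, ENO2, ALDOA, HK1 and LDHA higher and LDHB lower, and 11 of 19 mitochondrial members, all lower. The background was 32.9% of all genes tested, 16.2% higher and 16.6% lower, and the medians were 0.01 and -0.12. The glycolytic count fell to 2 without FAC+BafA1 replicate 2 and to 3 without control replicate 1 or 3, BafA1 replicate 3, FAC replicate 2, or FAC+BafA1 replicate 1 or 3. HK1 was lost in 13 of 20 alternatives (adjusted p from 0.0304 to 0.186), ALDOA in 11 (0.0128 to 0.159) and LDHA in 4 (0.00361 to 0.083). LDHA needed control replicate 3 and FAC+BafA1 replicates 1 and 2. Both others were also lost without control replicate 1 or 3, BafA1 replicate 3, FAC replicate 2 or FAC+BafA1 replicate 2 or 3, HK1 without the other FAC replicates, and ALDOA without BafA1 replicate 2 or FAC+BafA1 replicate 1. The mitochondrial calls were led by IDH1 (log2 change -0.58, adjusted p = 3.46e-08), PDHB (-0.31, adjusted p = 6.48e-07) and OGDH (-0.27, adjusted p = 0.000845). IDH2 was not called without control replicate 1 or 2 or any 1 FAC+BafA1 library (adjusted p from 0.0567 to 0.0981). SUCLA2 was not called without control replicate 1 or 2 or FAC+BafA1 replicate 1 (0.083 to 0.107).

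**Figure D4:**
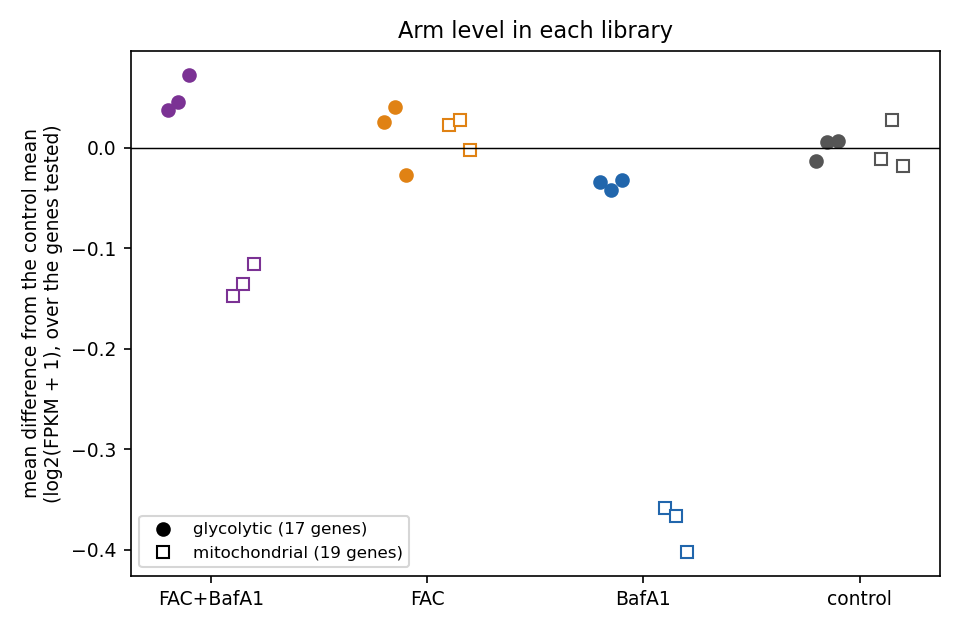
Mean difference of each library from the control mean on the scale of log2(FPKM + 1), over the 17 glycolytic members (filled circles) and the 19 mitochondrial members (open squares) tested. The mitochondrial arm lies between -0.40 and -0.36 in BafA1 libraries and between -0.15 and -0.12 in FAC+BafA1 libraries, while every glycolytic value lies between -0.04 and 0.07.

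Set side by side over whole libraries, the arms separated in BafA1 cells and less so in FAC+BafA1 cells. Each member counts equally in the means below, so minor forms weigh as much as major ones. The members include ENO2 (log2 change 1.07 with BafA1 without FAC), ALDOC (0.49) and IDH1 (-1.80). The medians of that comparison, -0.02 and -0.28, weigh such members less. How far the gap rests on single members was not tested. The mean difference from control over the mitochondrial members was -0.13 ± 0.02 in FAC+BafA1 cells, -0.38 ± 0.02 in BafA1 cells and 0.02 ± 0.02 in FAC cells. Over the glycolytic members it was 0.05 ± 0.02 in FAC+BafA1 cells, -0.04 ± 0.01 in BafA1 cells and 0.01 ± 0.04 in FAC cells (SD, n = 3 each). Mitochondrial minus glycolytic, it was -0.19 to -0.18 in FAC+BafA1 libraries, -0.37 to -0.32 in BafA1 libraries, -0.01 to 0.03 in FAC libraries and -0.03 to 0.02 in control libraries. In summed FPKM the glycolytic arm took 1.60% ± 0.00351 of each BafA1 library and 1.64% ± 0.00721 of each control library, and the mitochondrial arm 0.244% ± 0.00201 and 0.294% ± 0.00259. The arm sums in BafA1 cells were 0.913 of the control mean for the glycolytic and 0.776 for the mitochondrial arm. The summed FPKM of a library was 600261 to 604483 in BafA1 cells and 637374 to 649406 in control cells.

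Genes beside the 37, from lists drawn up with earlier results of these data known, were read in the same way. Of 14 tested genes for glucose entry and other glycolytic forms 4 were higher and 6 lower in BafA1 than in control cells. HK2, the inducible hexokinase, averaged 77.7 ± 1.93 FPKM in BafA1 cells and 22.9 ± 0.724 FPKM in control cells (log2 change 1.72), and 29.3 ± 0.378 FPKM in FAC+BafA1 cells and 23.2 ± 0.576 FPKM in FAC cells. By FPKM, which is scaled to length, HK2 was the more abundant hexokinase of the pair in BafA1 cells and HK1 in control cells. SLC2A1, the glucose transporter GLUT1, averaged 39.4 ± 1.34 FPKM in BafA1 cells and 14.7 ± 0.225 FPKM in control cells (log2 change 1.37). LDHC, a testis form, fell by 0.94 on the log2 scale. Of 12 tested genes controlling pyruvate entry 4 were higher and 4 lower. PDK1, a kinase that inactivates pyruvate dehydrogenase, averaged 33.5 ± 2.0 FPKM in BafA1 cells and 13.0 ± 1.38 FPKM in control cells (log2 change 1.3), while its relative PDK2 fell by 0.88 and the opposing phosphatase PDP1 rose by 0.54.

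Of 22 tested TCA carriers, ancillary enzymes and anaplerotic enzymes 4 were higher and 15 lower in BafA1 than in control cells. SLC25A10, the dicarboxylate carrier, averaged 16.8 ± 0.747 FPKM in BafA1 cells and 46.2 ± 1.79 FPKM in control cells (log2 change -1.41), and SLC25A11, the 2-oxoglutarate carrier, fell by 1.11. PCK2, the mitochondrial phosphoenolpyruvate carboxykinase, rose by 1.22. In the pentose phosphate pathway 0 of 7 tested genes were higher and 5 lower, among them TALDO1, transaldolase (-0.62), and PGD, phosphogluconate dehydrogenase (-0.40). All these counts stand against the background of 29.5% higher and 37.6% lower. With FAC present, between FAC+BafA1 and FAC cells, where the background is 9.76% higher and 9.49% lower, 4 higher and 2 lower were found for glucose entry, 2 and 1 for pyruvate control, 0 and 8 for the TCA list and 0 and 1 for the pentose phosphate pathway.

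Some entries share sequence or position with others. A read-through entry on the strand of CS held 14.01 to 26.91 FPKM in all FAC+BafA1 and FAC libraries and 0 in all BafA1 and control libraries. One over GPI held 3.33 to 6.91 FPKM in the libraries with FAC and 0 in those without. How far this touches CS and GPI in the interaction and in comparisons across FAC was not tested beyond the sums. With that entry added, CS averaged 196 ± 3.27 FPKM in FAC+BafA1 cells, 190 ± 5.43 FPKM in FAC cells, 151 ± 5.9 FPKM in BafA1 cells and 171 ± 3.59 FPKM in control cells. IDH3G overlaps SSR4 on the other strand, which reached 301 FPKM, and whether the strand was used in counting is not given in the sources used here. In all, 6 members overlap an entry above 1 FPKM on the same strand and 16 on the other strand. For the low members ENO2 and ALDOC the same-strand entry reached 4.24 and 3.5 FPKM, and for PC an opposite-strand entry reached 11.74 FPKM. How far these overlaps touch the values was not tested. Named pseudogenes exist for 17 members. GAPDH has 65, which summed to at most 9.33 FPKM.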

How the data were processed

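RNA was taken from 12 HEK293T libraries made with a stranded kit that selects polyadenylated RNA, per the labels' protocols. STAR, RSEM and the build GRCh38 were used per the submitters' processing notes, with versions, annotation and use of strand not given in the sources used here. The authors deposited FPKM per gene, rounded, in 1 table of 56340 entries, of which 3 repeated an ID with 0 throughout and were dropped. A count model cannot be used on such values. Depth was judged from values under 0.5 FPKM of genes with 1 transcript of 700 to 1200 bases, and 71.4% to 75.7% of them in the libraries with FAC and 55.0% to 58.3% in those without lay within 0.2 of a whole fragment, so no counts were recovered.

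Values were tested as log2(FPKM + 1) without further scaling, for genes averaging 1 FPKM or more, with limma 3.58.1 in R 4.3.3 (means of 4 groups, all 12 libraries, intensity trend) in 6 comparisons. Benjamini-Hochberg adjustment was made over all genes tested. Errors are SDs over 3 libraries and intervals are 95%.

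The 37 members and the other lists were chosen with earlier results of these data known. Values of all libraries are given for the 6 members in each arm with the largest called BafA1 changes, and for GAPDH, PKM, LDHA, CS, PC, IDH1 and IDH2. Members outside this rule are given by log2 change, mean or range, SLC16A3 excepted, and genes of other lists by up to 3 with the largest called change, of which 1 is not reported here. Sequences are from RefSeq, GRCh38.p14, and positions of genes from GENCODE release 44.

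Same-numbered libraries of different groups had correlations of their deviations from group means of -0.07 to 0.14, and others of -0.15 to 0.12, so the numbers were not taken to pair samples. Alternatives tried were median-of-ratios scaling, quantile normalization, a pseudocount of 0.1, no filter, a filter at 5 FPKM, a replicate block, no trend, the groups of a comparison alone, and leaving out each library.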

Additional observations from a re-analysis of the deposited data

Results flagged for a closer look

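A BafA1 change that differed between cells with and without FAC, by the limma interaction test at an adjusted p under 0.05, singled out 20 members. The values that follow are the log2 change between FAC+BafA1 and FAC cells minus that between BafA1 and control cells. In the glycolytic arm they were 0.17 for GPI, 0.25 for PFKM, 0.32 for TPI1, 0.68 for PGAM1, 0.28 for PKM and 0.35 for LDHB, with -0.55 for ALDOC and -0.42 for ENO2. At the pyruvate dehydrogenase complex they were 0.25 for PDHA1, 0.32 for PDHB, 0.21 for DLAT and 0.14 for DLD. In the TCA cycle they were 0.19 for CS, 1.16 for IDH1, 0.35 for IDH3B, 0.25 for IDH3G, 0.61 for OGDH, 0.20 for SUCLG2, 0.28 for MDH1 and 0.42 for MDH2. Median-of-ratios scaling took the call from DLD and SUCLG2, whose adjusted p was at most 0.182 and 0.0808 over the alternatives, and quantile normalization from CS, at most 0.172.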

How the results depend on the processing

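Counts of called members stayed within 1.5 times of those reported under every alternative run, apart from 2 counts. The glycolytic count between FAC+BafA1 and control cells, 5, was 3 with no filter on low values, 3 with the replicate block and 2 with no intensity trend, and 2 to 5 with 1 library left out. The glycolytic count between FAC and control cells was 0 to 1 with 1 library left out. The replicate block moved no other count by over 1.5 times, and the numbers do not pair the samples.

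With median-of-ratios scaling the glycolytic median was 0.042 for BafA1 against control, -0.001 for FAC+BafA1 against BafA1 and -0.038 for the interaction, where the reported values were -0.02, 0.06 and 0.03. The mitochondrial medians under it were -0.217, 0.145 and 0.13. With quantile normalization the glycolytic medians were 0.065 and 0.011 for the first pair of comparisons, and the mitochondrial medians -0.211, 0.11 and, for the interaction, 0.137, with -0.101 for FAC+BafA1 against control. Without IDH1 and MDH1 the mitochondrial median was -0.258 for BafA1 against control and 0.175 for FAC+BafA1 against BafA1. Without SLC16A1 and SLC16A3 the glycolytic median for FAC+BafA1 against BafA1 was 0.097.

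With 1 library left out the glycolytic median ran from -0.044 to -0.022 for BafA1 against control, from -0.025 to 0.019 for FAC+BafA1 against FAC and from -0.015 to 0.025 for FAC+BafA1 against control. The mitochondrial median ran from 0.002 to 0.024 for FAC against control, from 0.183 to 0.231 for FAC+BafA1 against BafA1, from -0.163 to -0.134 for FAC+BafA1 against FAC and from 0.183 to 0.222 for the interaction.

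Quantile normalization turned ALDOA to 0.185, ENO1 to 0.162 and SLC16A1 to 0.085 for BafA1 against control, ALDOA to -0.033 and ENO1 to -0.09 for FAC+BafA1 against BafA1, and ENO1 to -0.136 and LDHA to -0.142 for the interaction. ENO1 was -0.001 for FAC+BafA1 against BafA1 with median-of-ratios scaling. The cause was not tested. The median of all genes for BafA1 against control, reported as -0.04, was 0.00 with median-of-ratios scaling and -0.01 with quantile normalization, and the share of interaction calls that were positive, 58.9%, was 49.2% and 52.7%. Small changes such as those of GAPDH and HK1 are at the limit of 3 libraries a group, and depth is an estimate.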
